A study of Homo sapiens with 4 samples.

Results

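The genes described here are 48 of the 10147 genes with a deposited TT-seq value in K562 cells depleted of the elongation factor IWS1. Most of their products work on ribosome biogenesis in the nucleolus. They were chosen by a rule on gene names, with earlier results of these data known. The rule took every symbol made of UTP, NOP, NOL or RRP and a number, with or without a final letter. It also took NOC2L to NOC4L, IMP3, IMP4, GAR1, NHP2, and 18 fixed names, of which 12 had a value. *NCL*, *DKC1*, *BOP1*, *UBTF*, *EBNA1BP2* and *TSR1* were not analysed here. The name rule also took in *NOL3*, an inhibitor of apoptosis that has no part in ribosome assembly, and *NOL4L*. Without these 2 genes the counts changed little, with 26 of 46 genes called lower and a median log2 ratio of -0.37.

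Ribosomes are built in the nucleolus, where RNA polymerase (Pol) I makes 1 long precursor of the ribosomal RNAs. Small nucleolar ribonucleoproteins (snoRNPs) of the box C/D and box H/ACA kinds methylate and pseudouridylate this precursor, the small subunit processome folds and cuts its first part, and a separate set of factors assembles the large subunit. Every gene below is itself a Pol II gene. Its TT-seq value reports new RNA made from the gene and not ribosome production.

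TT-seq isolates and sequences RNA labelled with 4-thiouridine (4sU) in a short pulse, so that the reads reflect RNA synthesis. The erythroid-type leukemia line K562 was genome-edited and carried a degradation tag at the N-terminus of the endogenous IWS1 protein in both groups. Control cells received the solvent DMSO (2 libraries) and dIWS1 cells received 500 nM of the ligand dTAG7, which recruits the tagged protein for degradation (2 libraries), each for 1 h. Both groups were labelled with 500 µM 4sU for 5 min. The comparison asks how new RNA synthesis of each gene differs shortly after loss of IWS1. The labels call the samples biological duplicates.

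Reads per library column were recovered from the authors' mean of spike-in normalized counts. The 2 control columns held identical values and therefore counted as 1 sample, so the comparison is 1 control column against 2 dIWS1 columns and no spread between controls could be measured. The columns held 29069968 reads in genes for control, 20145803 for dIWS1 column 1 and 20373592 for dIWS1 column 2, with spike-in size factors of 1.01, 0.993 and 0.919. The 48 genes took 0.415% of the control reads and 0.441% and 0.453% of the dIWS1 reads. Column 1 lay below column 2 for most genes (median difference -0.12 on the log2 scale, SD 0.13, over 8890 genes with a mean of at least 100), and for 44 of the 48 genes. Of 14 marker genes of K562 cells 13 had a value, among them *GATA1* with 1498 control reads. Of 8 genes listed as markers of other blood cells 3 had one: *CD3D* with 135 control reads, *LYZ* with 60 and *PTPRC* with 15352. These reads are not per length, and *PTPRC* spans 119 kb beside 7.72 kb for *GATA1*. Whether *PTPRC* tells K562 from other blood cells was not tested. The transcript of *IWS1* itself had 3684 control reads and 2334 and 2427 dIWS1 reads (log2 ratio -0.55, adjusted p = 0.000888). This value does not measure the protein. In bulk samples fewer cells and less RNA per cell cannot be told apart.

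A pair of short sequences, out of 6 searched, recurred upstream of these genes. RefSeq windows of 250 bases upstream of the start (GRCh38.p14) were found by symbol for 42 of the 48 genes, with more than 1 window for 7 genes. The E-box letters CACGTG, which read the same on both strands and are bound by MYC and related factors, were found for 10 of the 42 genes (23.8%) against 11.3% of 7464 table genes with a window. The letters CCGGAAG, a core of ETS-type sites, were found on either strand for 16 of the 42 (38.1%) against 20.9%. A match in any window of a gene counted. The CACGTG of *LYAR* and the CCGGAAG of *RRN3* lie inside the gene, upstream of a second RefSeq start. Counted by window, the shares were 20.4% of 49 member windows for CACGTG, beside 8.48% of 10625 windows of table genes and 6.34% of all 35116 RefSeq windows. For CCGGAAG they were 32.7%, 15.7% and 8.52%. Of the genes with a window, 6 of 23 called lower after spike-in scaling and 4 of 19 not called held CACGTG, and 7 of 23 and 9 of 19 held CCGGAAG. The letters of both motifs did not overlap in any window printed here. A match describes letters and not a bound site, and the shares were not tested.

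The following windows of 30 bases each are shown because they hold, for genes that the results turn on, the match of that motif nearest to the start, with the motif in capitals (5′ to 3′ on the gene's strand). They are examples of each motif and not a pairing of motif and response. The first 4 hold CACGTG: *NAT10* (chr11:34105599-34105628, plus strand, 15 bases before the start), *UTP20* (chr12:101280075-101280104, plus strand, 10 bases before it), *NOL8* (chr9:92325351-92325380, minus strand, 9 bases before it) and *NOP10* (chr15:34343137-34343166, minus strand, 11 bases before it). *NOP10* also holds CCGGAAG. The last 4 hold CCGGAAG or its reverse complement: *GAR1* (chr4:109815471-109815500, plus strand, 28 bases before the start), *NOC3L* (chr10:94362969-94362998, minus strand, 48 bases before it), *RRN3* (chr16:15094291-15094320, minus strand, 37 bases before a second start inside the gene) and *BRIX1* (chr5:34915595-34915624, plus strand, 105 bases before the start).
NAT10: tttaatgcgcttgcgCACGTGctgtctacc
UTP20: gcgccgttcttttttccgtcCACGTGaccc
NOL8: agagaggatgctccgttgggaCACGTGacc
NOP10: caggaaggaaattgacgaaCACGTGacgcg
GAR1: ttgccgcagcaCTTCCGGgacgtcgtgctg
NOC3L: tcccgccctcaCTTCCGGcggcggaggatt
RRN3: ggcacgcgcaaCTTCCGGgacagaggctgt
BRIX1: cgccaccgagaCCGGAAGgaggcggcacag

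New RNA from the 48 genes was mostly lower after 1 h of dTAG7, and by unequal amounts. With spike-in scaling 27 of the 48 genes were called lower and 0 higher at an adjusted p under 0.05 (limma voom over all genes, Benjamini-Hochberg). Over all 9997 genes tested 64.9% were called lower and 0.13% higher, so the share of 56.25% among the 48 genes lies near the background. None of the 48 was higher at an unadjusted p under 0.05 either (18 of all 9997 genes), nor called higher with limma trend (8 of all genes). Their median log2 ratio was -0.38 (quartiles -0.51 and -0.22), beside -0.42 over all genes tested. All 48 genes lay below the control in dIWS1 column 1 and 44 did in column 2, and 44 lay below it in both. The values ran from -0.94 for *NOL12* to 0.01 for *UTP23*. All 48 passed the minimum of 10 summed reads. The control is a single column in this test and was assumed to vary as the dIWS1 columns do.

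**Figure D1:**
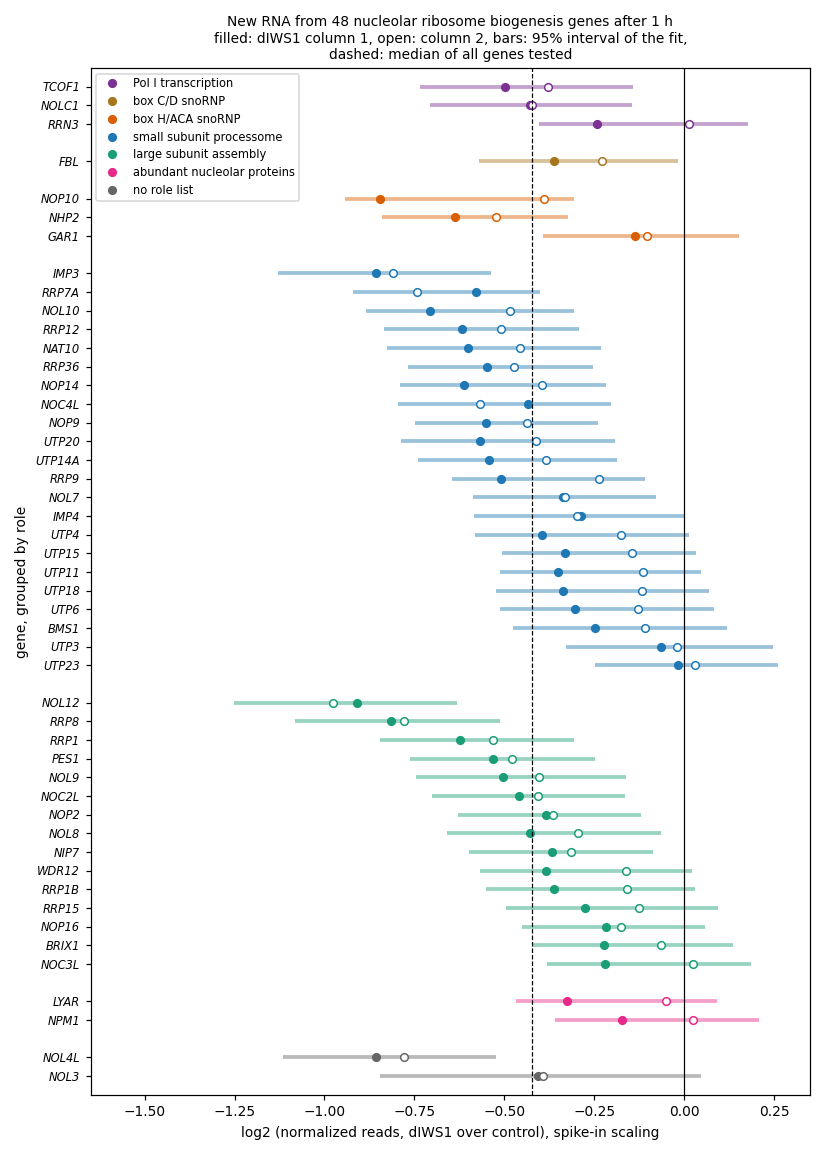
Log2 ratio of spike-in normalized reads, dIWS1 over control (x axis), for each of the 48 genes (y axis, grouped by role), with filled points for dIWS1 column 1, open points for column 2 and bars for the 95% interval of the fit. Most points lie left of 0, *NOL12*, *IMP3*, *NOL4L* and *RRP8* lie farthest left, and *UTP3* and *UTP23* lie close to 0; the dashed line is the median of all genes tested, -0.42.

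The genes differed widely in how much new RNA they gave. Per kb of gene length, the spike-in normalized level in the control was 780.4 for *NPM1*, 262.8 for *RRP8* and 256.4 for *IMP3*, and it was 17.9 for *NOP9* and 15.4 for *NOL3*. For *NOP9* the length was a RefSeq span of 37922 bases that holds its upstream window (chr14:24299600-24299849), so its level per kb may be too low. The median over the 48 genes of the mean level over all columns was 70.9 per kb, beside 36.5 for all genes tested. The genes were 1.13 to 142 kb long (median 17.4 kb).

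**Figure D2:**
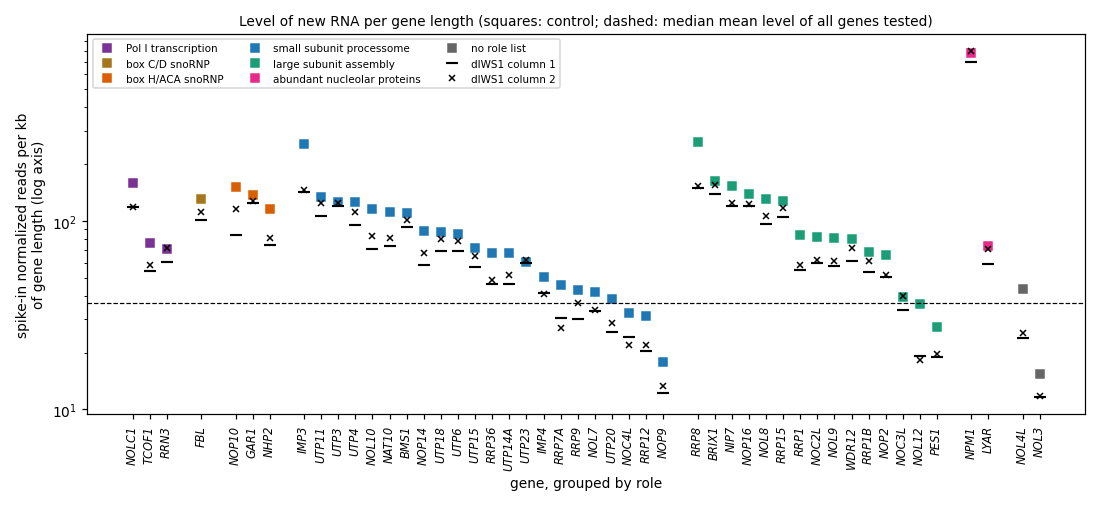
Spike-in normalized reads per kb of gene length on a log axis (y) for each gene (x, grouped by role), with squares for the control column, short lines for dIWS1 column 1 and crosses for column 2. *NPM1* stands highest with 780.4 per kb in control and 692.2 and 793.3 in the dIWS1 columns, and the dashed line is the median of all genes tested, 36.5.

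Of the genes tied to Pol I transcription, 2 of the 3 measured fell (median log2 ratio -0.42). *TCOF1* encodes treacle, which supports transcription of ribosomal DNA, and had 3275 control reads against 2281 and 2292 (-0.44, SE 0.15, adjusted p = 0.00772). *NOLC1*, a chaperone of snoRNPs that also binds treacle, had 1847 against 1351 and 1255 reads (-0.42, SE 0.14, adjusted p = 0.00673). *RRN3*, the factor that brings Pol I to its promoter, had 2470 reads in control and 2052 and 2272 in dIWS1. Its 2 dIWS1 columns lay on both sides of the control after scaling (-0.24 and 0.01), and the test did not pass (-0.11, 95% interval -0.41 to 0.18, adjusted p = 0.483).

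The snoRNP genes gave unequal values. *FBL*, the methyltransferase of box C/D snoRNPs and the only gene of that complex analysed here, had 1563 reads in control and 1197 and 1215 in dIWS1 (-0.29, interval -0.57 to -0.02, adjusted p = 0.0559). The box H/ACA core proteins assist the pseudouridine synthase dyskerin and also belong to telomerase. *NHP2* had 519 control reads and 328 and 329 dIWS1 reads, a fall of 0.58 on the log2 scale (SE 0.13, adjusted p = 6.50e-05). *NOP10* had 216 control reads and 118 and 150 dIWS1 reads (-0.62, SE 0.16, adjusted p = 0.000465). The fall of *NOP10* leaned on column 1, with log2 ratios of -0.85 and -0.39 in the single columns, so its value without column 1 is -0.39. *GAR1*, the third subunit measured, had 1280 control reads and 1146 and 1084 dIWS1 reads (-0.12, interval -0.39 to 0.15, adjusted p = 0.425).

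The small subunit processome gave 22 of the 48 genes. Of these, 13 were called lower, 9 did not pass, and the median log2 ratio was -0.42. *IMP3* and *IMP4* are partner proteins of the U3 snoRNP, which pairs with the ribosomal RNA precursor. *IMP3* (chr15:75639093-75640224, minus strand), which has a single exon, had 293 control reads and 159 and 152 dIWS1 reads (-0.83, SE 0.15, adjusted p = 5.99e-07). *IMP4* had 258 control reads and 208 and 191 dIWS1 reads (-0.29, SE 0.15, adjusted p = 0.0724). Of the pair, *IMP3* kept 55.2% and 57.1% of its control level and *IMP4* 82.0% and 81.3%.

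Enzymes and scaffolds of the processome lay between these values. *NAT10*, which acetylates cytidines of the small subunit RNA, fell by 0.53 on the log2 scale (4637 control reads, 3008 and 3078 in dIWS1, adjusted p = 0.00149). *UTP20*, a long helical repeat scaffold, fell by 0.49 (4116 against 2732 and 2815 reads, adjusted p = 0.00317). *RRP7A*, the fifth lowest of all 48, had 526 control reads and 346 and 286 dIWS1 reads (-0.66, SE 0.13, adjusted p = 6.23e-06). Further genes called lower were *NOL10* (-0.60), *RRP12* (-0.56), *RRP36* (-0.51), *NOP14* and its partner *NOC4L* (-0.50 each), *NOP9* (-0.49), *UTP14A* (-0.46), *RRP9*, which binds U3 RNA (-0.38), and *NOL7* (-0.33). The value of *RRP9* without column 1 is -0.24.

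Genes of the early binding UTP-A and UTP-B subcomplexes were among those that did not pass. *UTP15* of UTP-A had 1284 control reads and 1003 and 1058 dIWS1 reads (-0.24, adjusted p = 0.113), and its partner *UTP4* had a log2 ratio of -0.28. *UTP18* of UTP-B had 3288 reads in control and 2560 and 2760 in dIWS1 (-0.23, adjusted p = 0.167), and *UTP6* had -0.21. The GTPase gene *BMS1* had 5763 control reads and 4776 and 4869 dIWS1 reads (-0.18, adjusted p = 0.279). Without column 1 the values were -0.14 for *UTP15*, -0.18 for *UTP4*, -0.12 for *UTP18*, -0.13 for *UTP6* and -0.11 for *BMS1*. Over all 48 genes, leaving out column 1 moved 2 of the 27 genes called lower (*NOP10* and *RRP9*) by more than 1.5 times or across 0. It moved 16 of the 21 others by as much. Leaving out column 2 moved none of the 27 and 8 of the 21. These moves were not counted over all genes. The median difference between the columns was -0.12 both over genes with a mean of at least 100 and over the 48. A ratio near 0 passes the bound of 1.5 times at a small shift.

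The highest values of all 48 genes also came from this group. *UTP23*, a PIN domain protein linked to removal of a snoRNA from the precursor, had 500 control reads and 486 and 465 dIWS1 reads (0.01, interval -0.25 to 0.26, adjusted p = 0.965). *UTP3*, which like *IMP3* has a single exon, had 256 control reads and 241 and 230 dIWS1 reads (-0.04, interval -0.33 to 0.25, adjusted p = 0.797). Set against the median gene, *UTP3* did not pass (0.38, adjusted p = 0.0591).

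Large subunit assembly gave 15 genes, of which 9 were called lower, with a median log2 ratio of -0.36. *NOL12*, an RNA-binding protein of precursor processing, was lowest, with 260 control reads and 136 and 120 dIWS1 reads (-0.94, SE 0.16, adjusted p = 7.38e-08). *RRP8*, a methyltransferase of the large subunit RNA, had 2267 control reads and 1268 and 1203 dIWS1 reads (-0.80, SE 0.14, adjusted p = 6.68e-07). Both dIWS1 columns of *RRP8* kept 56.9% and 58.3% of the control level.

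*PES1* and *WDR12* encode 2 partners of the PeBoW complex, needed for maturation of the large subunit RNA. *PES1* had 837 control reads and 570 and 547 dIWS1 reads (-0.50, SE 0.13, adjusted p = 0.000465). *WDR12* had 3033 control reads and 2286 and 2470 dIWS1 reads (-0.27, SE 0.15, adjusted p = 0.0961). *NOP2*, a methyltransferase of the large subunit RNA, had 762 control reads and 574 and 539 dIWS1 reads (-0.37, SE 0.13, adjusted p = 0.0086). Also called lower were *RRP1* (-0.58), the kinase gene *NOL9* (-0.45), *NOC2L* (-0.43), *NOL8* (-0.36) and *NIP7* (-0.34), although the call of *NOL8* was lost with limma trend. *RRP1B* (-0.26), *RRP15* (-0.20), *NOP16* (-0.20) and *BRIX1* (-0.14) did not pass, nor did *NOC3L* with 1912 control reads and 1614 and 1770 dIWS1 reads (-0.10, interval -0.38 to 0.19, adjusted p = 0.538). Without column 1 the values were -0.16 for *WDR12*, -0.16 for *RRP1B*, -0.12 for *RRP15*, -0.07 for *BRIX1* and 0.02 for *NOC3L*.

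The genes of the 2 abundant nucleolar proteins measured did not pass the test. *NPM1* (chr5:171387116-171410900, plus strand) encodes nucleophosmin, a histone and ribosome chaperone, and had the most reads, with 18740 in control and 16353 and 17348 in dIWS1. Its columns lay on both sides of the control after scaling (-0.17 and 0.02), and the fit gave -0.08 (interval -0.36 to 0.21, adjusted p = 0.636). *LYAR* had 1671 reads in control and 1311 and 1469 in dIWS1 (-0.19, or -0.05 without column 1, adjusted p = 0.226). Outside the role lists, *NOL4L* (142 kb) had 6256 control reads and 3397 and 3319 dIWS1 reads (-0.82, SE 0.15, adjusted p = 9.44e-07), and *NOL3* had the fewest reads, 81 in control and 60 and 56 in dIWS1 (-0.40, adjusted p = 0.106).

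Because the median of all genes moved by -0.42, each gene was also set against the median gene, with columns scaled by their median ratio over all genes. On this scale 3 of the 48 genes were called lower and 9 higher, whereas over all genes 12% were called lower and 12.1% higher (1197 and 1211 of 9997). The 36 others did not pass, the median over the 48 genes was 0.05, and 26 of them lay above the median gene. The 3 lower genes were *NOL12* (-0.52, adjusted p = 0.0346), *NOL4L* (-0.40, adjusted p = 0.00453) and *RRP8* (-0.37, adjusted p = 0.00826). *IMP3* had a relative ratio of -0.41 and just missed the threshold (adjusted p = 0.0526).

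The 9 genes higher relative to the median gene came from all stages of the pathway. They were *UTP23* (0.43, adjusted p = 0.0154), *NPM1* (0.35, adjusted p = 0.00578), *NOC3L* (0.32, adjusted p = 0.0183), *RRN3* (0.31, adjusted p = 0.0222), *GAR1* (0.30, adjusted p = 0.0209), *BRIX1* (0.28, adjusted p = 0.0209), *BMS1* (0.24, adjusted p = 0.0212), *RRP15* (0.22, adjusted p = 0.0288) and *UTP6* (0.21, adjusted p = 0.0483). Both dIWS1 columns lay above the median gene in each. None of the 9 was above the control after spike-in scaling beyond its error, so that higher here means a smaller fall than that of the median gene. These counts depend on the genes entering the fit. With no minimum of summed reads limma voom called 1 of the 48 lower and 0 higher, beside 248 and 126 of all 10126 genes. At an unadjusted p under 0.05, 13 of the 48 were higher in that fit, beside 1814 of all genes. With limma trend 2 were lower and 8 higher, beside 962 and 970 of all 9997 genes. With the control column entered 2 times 11 were lower and 16 higher, beside 2658 and 2727 of all 10016 genes. Of the 8 relatively higher genes with an upstream window, 4 held CCGGAAG (those shown above, *RRN3* only before its second start) and none held CACGTG. Of the 3 relatively lower genes none held either, and of the 31 others with a window 12 held CCGGAAG and 10 held CACGTG.

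**Figure D3:**
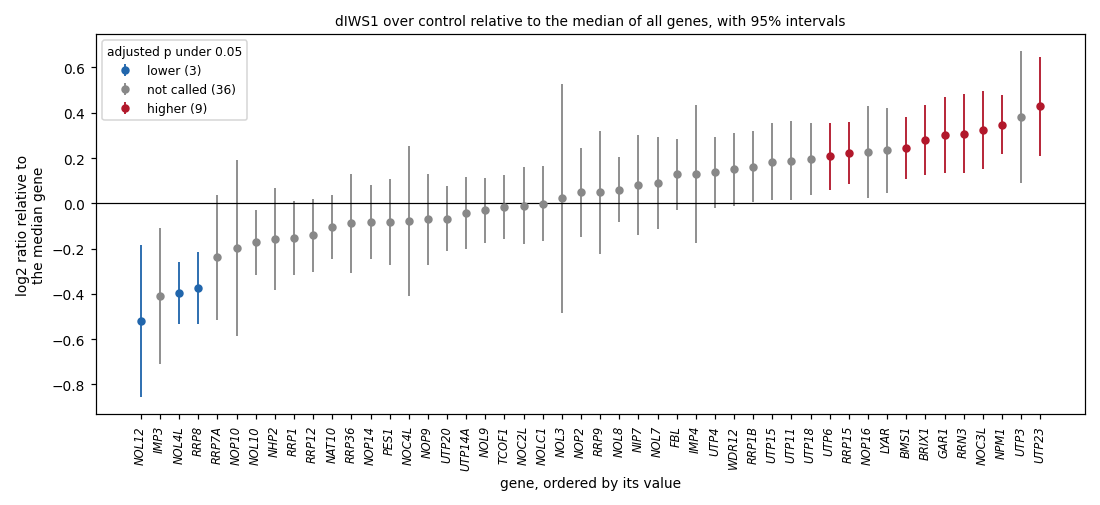
Log2 ratio of dIWS1 over control relative to the median gene (y axis) for the 48 genes ordered by value (x axis), with 95% intervals before adjustment; blue marks the 3 genes called lower, red the 9 called higher and grey the 36 others. *NOL12* stands at -0.52 on the left and *UTP23* at 0.43 on the right.

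A ratio of the reads of 2 genes within a column needs no size factor. It was computed for 10 pairs of partners, paralogs or single exon genes, chosen after the values were seen, with 95% intervals for counting error only. In the box H/ACA complex there were 2.47 reads of *GAR1* per read of *NHP2* in control and 3.49 and 3.29 in the dIWS1 columns, a change of 0.46 on the log2 scale (interval 0.27 to 0.65). The *GAR1* to *NOP10* ratio went from 5.93 to 9.71 and 7.23 (0.49, interval 0.21 to 0.77), and that of *NHP2* to *NOP10* from 2.40 to 2.78 and 2.19, on both sides of the control (0.03, interval -0.28 to 0.34). In the U3 snoRNP there were 1.14 reads of *IMP3* per read of *IMP4* in control and 0.764 and 0.796 in dIWS1 (-0.54, interval -0.87 to -0.22).

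Within the large subunit factors the *WDR12* to *PES1* ratio went from 3.62 to 4.01 and 4.52 (0.23, interval 0.09 to 0.38). The ratio of *NOC3L* to its partner *NOC2L* went from 1.54 to 1.82 and 2.08 (0.34, interval 0.20 to 0.47), and that of the paralogs *RRP1B* and *RRP1* from 1.89 to 2.26 and 2.44 (0.32, interval 0.19 to 0.44). For the early subcomplexes of the processome the intervals held 0. The *UTP4* to *UTP15* ratio was 3.58 in control and 3.43 and 3.50 in dIWS1 (-0.05, interval -0.16 to 0.07), and the *UTP18* to *UTP6* ratio was 0.939, 0.917 and 0.946 (-0.01, interval -0.10 to 0.08). The largest shift of the 10 pairs was that of the single exon genes *UTP3* and *IMP3*, from 0.874 to 1.52 and 1.51 (0.79, interval 0.48 to 1.11). Of the 10 intervals 6 lay above 0, 1 lay below and 3 held 0. The side of 0 depends on which gene of a pair was put on top, so these counts show no common direction.

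**Figure D4:**
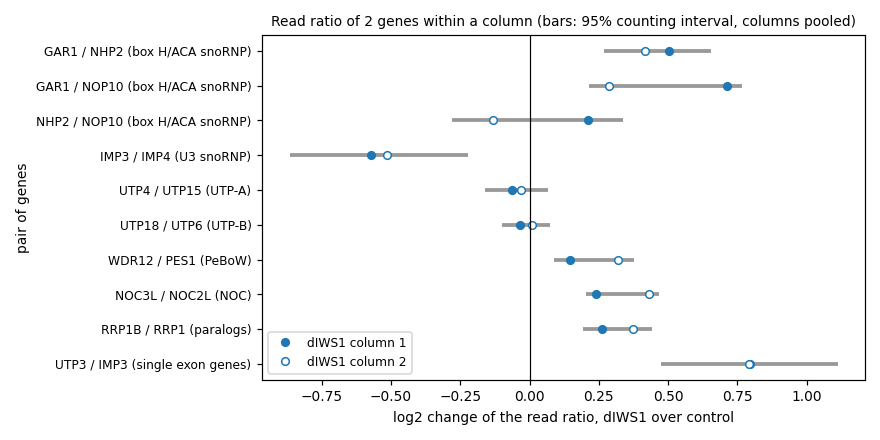
Change of the read ratio of 2 genes from control to dIWS1 on the log2 scale (x axis) for 10 pairs (y axis), with filled points for column 1, open points for column 2 and bars for the 95% counting interval of the pooled dIWS1 columns. *UTP3* over *IMP3* lies farthest right at 0.79, *IMP3* over *IMP4* farthest left at -0.54, and the UTP-A and UTP-B pairs lie near 0 (-0.05 and -0.01).

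Other genes of the same pathway, from a list made with textbook knowledge and with earlier results of these data known, were also mostly lower. Of 82 measured, 47 were called lower and 0 higher after spike-in scaling, with a median log2 ratio of -0.33. At an unadjusted p under 0.05 the counts were 50 and 0, beside 6919 and 18 of all 9997 genes. With limma trend 36 and 0 were called, beside 5464 and 8 of all genes. Relative to the median gene 6 were lower and 16 higher. The lowest were *RBM19* (-0.87, 7220 control reads, 3799 and 3689 in dIWS1), *NPM3* (-0.87, 187 against 101 and 93 reads) and *EMG1* (-0.80, 694 against 358 and 396 reads). *ZCCHC9* (-0.09), *WDR75* of UTP-A (-0.08) and *MPHOSPH10*, the third partner of *IMP3* and *IMP4* (-0.04, 1010 reads in control and 872 and 992 in dIWS1, adjusted p = 0.797), were highest. The 49 measured genes with cytosolic ribosomal protein names, the components that these factors assemble, had a median log2 ratio of -0.49 with 47 called lower (64.9% over all genes). Relative to the median gene 5 of them were lower and 0 higher, beside 12% and 12.1% over all genes. At an unadjusted p under 0.05, 1 of them was higher, beside 1968 of all genes. With limma trend 0 were called higher, beside 970 of all genes. Whether these groups differ from the 48 genes was not tested.

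**Figure D5:**
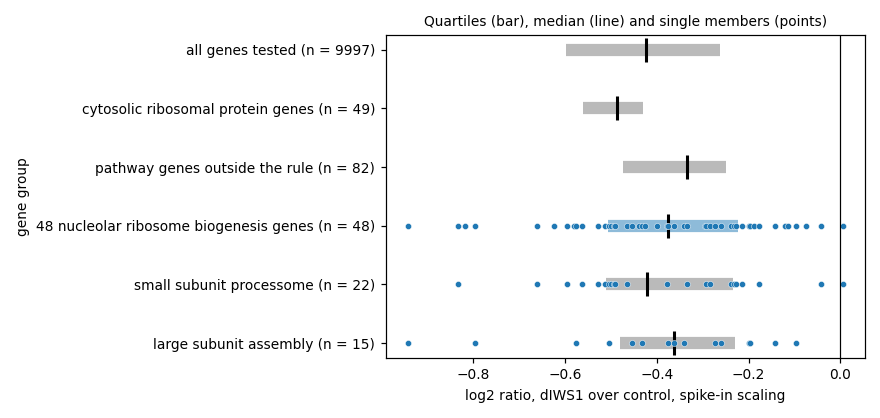
Log2 ratio of dIWS1 over control after spike-in scaling (x axis) for groups of genes (y axis), with bars from the first to the third quartile, black lines for medians and points for single genes of the 48. The median of the 48 genes is -0.38, beside -0.42 for all genes tested, -0.49 for ribosomal protein genes and -0.33 for other pathway genes.

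The ratio over all genes differed between length classes, and the medians of the 48 genes lay near those of their class. In genes of 5 kb or less the median log2 ratio was -0.52 over all 1147 genes and -0.46 over the 6 members, which ranged from *IMP3* (-0.83) to *UTP3* (-0.04). Between 20 and 40 kb it was -0.36 over 2069 genes and -0.28 over 13 members, and above 40 kb -0.44 over 3803 genes and -0.46 over 10 members. The 13 members include *NOP9* and *PES1*, whose upstream window lies inside the span used as gene length, so their class is uncertain. Among genes with means between 487 and 2767 normalized counts, the middle range of the 48, the median was -0.38 over 3938 genes, of which 63.0% were called lower, and -0.31 over 24 members, of which 12 were called lower.

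Some members share sequence with copies that have a value of their own. Only unique read pairs were counted, so reads that match a member and its copy equally well would be missing. *BMS1P4* had a log2 ratio of -0.67 (1773 control reads, 1074 and 1029 in dIWS1), *BMS1P5* -0.31 and *BMS1P20* -0.27, beside -0.18 for *BMS1*. *RRN3P3* had -0.18 beside -0.11 for *RRN3*, and *RRP7BP* had -0.53 beside -0.66 for *RRP7A*. How far this affects the values of *BMS1*, *RRN3* and *RRP7A* was not tested.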

How the data were processed

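TT-seq reads of 4 libraries were aligned by the authors with STAR 2.6.0 to GRCh38 with spike-in sequences, and unique read pairs were counted per RefSeq gene by strand, without overlapping genes. The 1 deposited table holds, for 10147 genes, the authors' mean signal (the mean over columns of counts divided by spike-in size factors) and their DESeq2 comparison. Of the deposited comparison only the sign of the log2 fold change was used, to tell which recovered columns were dIWS1, and it was taken as dIWS1 over control because the table does not name its direction. Its standard errors, test statistics and p-values were not used.

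Means were split into whole reads. The means were sums of whole multiples of 3 steps, the largest weighing as 2 equal columns. Of 10136 genes with a mean above 0, 10126 had exactly 1 split, 10 were left out (means of 35419 and above) and 11 had a mean of 0. On simulated data 8712 of 8712 genes were split correctly, and 14 of 500 shifted means could be split. The simulation used the recovered steps and took the 2 control columns as equal, so it does not test that equality. It left out genes with the highest means, among them *NPM1*, *NOL10*, *RRP15* and *BMS1*. The recovered columns carry no replicate numbers.

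Genes with at least 10 summed reads were fitted with limma 3.58.1 (voom, R 4.3.3, pseudocount 0.5) with library sizes set to the spike-in size factors or, relative to the median gene, to median ratios, and called at an adjusted p under 0.05. With spike-in scaling limma gave genes of the same level the same spread. Those p-values rest on a trend over all genes and not on each gene's own columns. Relative to the median gene, each gene's own dIWS1 columns also entered its spread. On that scale *LYAR* and *BRIX1*, of similar level, had standard errors of 0.082 and 0.068. Because only 1 control column exists, p-values measure the spread between the 2 dIWS1 columns, which may be technical. On simulated data with 10004 genes, 200 of 200 genes changed 2-fold and 15 unchanged genes were called. Only genes with a mean of at least 100 were changed. The simulation held no shift shared by all genes and left out the median difference of -0.12 between the dIWS1 columns. It therefore cannot give the share of smaller changes found, nor the share of false calls in the real columns. The count test planned for a table of raw counts was not run, since the table holds a mean. Log2 ratios of single columns are reads over size factors. Intervals and ratios from reads cover counting error only.

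Lengths, positions and upstream windows are those of RefSeq for GRCh38.p14, and 9929 of 10147 gene names matched. The windows were searched for 6 motifs on both strands, of which CACGTG and CCGGAAG are reported because they had the most matches. The 4 others were GCATGCGC (4.76% of the 42 genes, 6.03% of table genes), AAGATGGC (4.76%, 2.60%), TCTCGCGA (7.14%, 2.79%) and TATAAA (2.38%, 6.94%). The 48 genes, role lists and pathway list were chosen with earlier results of these data known. Values were given in full for core genes of each complex and for the 5 lowest and 5 highest of the genes with a mean of at least 100, and outside the 48 for *IWS1* and the 3 lowest and 3 highest pathway genes. Scripts ran in Python 3.11.15 (numpy 2.4.6 and matplotlib 3.10.9).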

Additional observations from a re-analysis of the deposited data

How the results depend on the processing

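With spike-in scaling the count of members called lower stayed within 1.5 times 27 under every alternative run except the change of scaling, namely no minimum of reads, a mean of at least 100, limma trend, a pseudocount of 5, the control column entered 2 times and an adjusted p under 0.01. Scaled by the median ratio, 3 members were lower and 9 higher, 1197 and 1211 of all genes, and 6 and 16 of the pathway genes. The members' median was then 0.0481, and those of the lists 0.13 (box C/D), 0.00306 (small subunit processome) and 0.0603 (large subunit). Of the 48 members 25 went from below 0 to above 0, and 13 of these 25 passed a test on 1 of the 2 scales. Called lower with spike-in scaling were *RRP9* (0.0481), *NOL7* (0.0894), *NOL8* (0.0603), *NOP2* (0.0480) and *NIP7* (0.0813). Called higher relative to the median gene were *RRP15* (0.22), *GAR1* (0.30), *BRIX1* (0.28), *NPM1* (0.35), *BMS1* (0.24), *NOC3L* (0.32), *RRN3* (0.31) and *UTP6* (0.21). Values in brackets are those relative to the median gene. For all genes called higher (13), limma trend gave 8, the control entered 2 times 54 and an adjusted p under 0.01 6. The stricter threshold left 31 pathway genes lower, beside 4868 of all genes. Relative to the median gene, members lower and higher numbered 5 and 16 with scaling by total reads, where counts over all genes are not given here. They numbered 11 and 16 with the control entered 2 times (2658 and 2727 of all 10016 genes), and 1 and 0 with no minimum of reads (248 and 126 of 10126). With a mean of at least 100, 5 were lower (1449 of 8890). At an adjusted p under 0.01, 1 was higher, again without a count over all genes. The cause of these changes was not tested. The doubled control is a copy and adds no measured spread between controls. Leaving out 1 dIWS1 column leaves no residual and hence no test. The members' median was then -0.35 without column 1 and -0.42 without column 2, and 0.02 to 0.06 relative to the median gene. With limma trend the call of *NOL8* was lost. No paired analysis was possible because the recovered columns carry no replicate number and the control columns are identical. Depth limits the genes with few reads, such as *NOL3*, whose standard error of 0.23 is the largest of the 48.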
